A study of Mus musculus with 6 samples.

Results

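The mitochondrial transhydrogenase gene Nnt was followed with 9 further genes for enzymes that make or spend NADPH, the reducing currency of the mitochondrial matrix, or that remove superoxide and peroxides there. The 10 genes are Nnt, Idh2, Glud1, Me3, Sod2, Prdx3, Prdx5, Txn2, Txnrd2 and Gsr, taken by symbol from the 24513 gene rows of the count tables, and all 10 passed the filter on low counts. Nnt was selected on its read counts in this comparison, where it had already been seen to be higher in the mutant hypothalamus, and the other 9 were chosen by their known function, to set beside it. The values of Nnt in this contrast are therefore a description. No p is given for it, and its place past or short of a threshold supports nothing.

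RNA was sequenced from hypothalamus of 3 wild-type (WT) and 3 NS-DADm mice, 1 library per animal, all labelled C57BL/6 without a substrain and aged 3 to 4 months. NS-DADm is known, from background rather than from the labels, as a whole-body knock-in with a mutated deacetylase-activating domain in corepressors such as NCOR1, the part through which these proteins switch on the histone deacetylase HDAC3. The question is how transcript levels differ in hypothalamus when that domain is disabled. Values of single libraries are listed in the order of animals 1, 2 and 3 of a group.

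NNT sits in the inner mitochondrial membrane and uses the proton gradient to pass electrons from NADH to NADP+. Isocitrate dehydrogenase 2, malic enzyme 3 and glutamate dehydrogenase can also supply NADPH in the matrix. Glutathione reductase and thioredoxin reductase 2 spend it to recharge glutathione and thioredoxin 2, which in turn keep peroxiredoxins 3 and 5 able to destroy peroxides, including the hydrogen peroxide that superoxide dismutase 2 makes from superoxide. The C57BL/6J substrain is known for an Nnt gene that lacks several exons and yields no functional enzyme, whereas C57BL/6N mice carry the intact gene.

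The libraries held 24173076 to 27606309 reads on genes, and between WT and NS-DADm 104 of 15894 tested genes passed the threshold, an adjusted p under 0.05 in edgeR's quasi-likelihood test (0.654%; 13 higher and 91 lower in NS-DADm). Levels are normalised read counts (CPM, counts scaled to a common library size). For Ncor1 the WT libraries held 221, 233 and 235 CPM and the NS-DADm libraries 225, 222 and 230 CPM. For Hdac3 they ranged from 96.7 to 102 CPM (WT) and from 106 to 108 CPM (NS-DADm). Neither gene passed the threshold, and such levels say nothing of a mutation within the protein, so the genotype labels could not be checked. All 10 hypothalamus markers, among them Hcrt, Pmch, Oxt and Avp, were present in every library with at least 64 counts, and none passed the threshold. Their fitted values were above 0 for 8 and below 0 for 2, with a median of 0.18 on the log2 scale. All 13 thalamus markers were lower in NS-DADm without overlap, as were 1419 of the 15894 tested genes. This list, like the others, was chosen with earlier results of these data known. Of the 13, 5 (Lef1, Plekhg1, Rgs16, Slitrk6 and Plcb4) passed the threshold. The 13 summed to 864 to 1338 CPM (WT) and to 576 to 663 CPM (NS-DADm). The 9 anterior pituitary markers summed to 39.7 to 111 CPM in the WT libraries and to 199 to 2021 CPM in the NS-DADm libraries, the highest in NS-DADm 2, and none of the 7 tested passed the threshold. No thalamus or pituitary marker was at 0 in any library. Fitted values were below 0 for all 5 oligodendrocyte and all 5 microglia markers, and for 4 of the 5 neuron, astrocyte and vessel cell markers each. List medians were -0.19, -0.16, -0.11, -0.15 and -0.26 on the log2 scale, and of these genes only the pericyte gene Rgs5 passed the threshold (log2 -0.55; edgeR, BH adjusted p = 0.0033).

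Nnt (ENSMUSG00000025453.18) lies at chr13:119335448-119408997 on the minus strand in GRCm38, the mm10 build to which the reads were aligned. The assembly is of the C57BL/6J substrain, so reads from the exons that this substrain lacks have no place to align, and the counts describe the remaining exons. GENCODE M21 lists 6 Nnt transcripts, 4 of them coding, and gives Nnt-206 a gene identifier of its own. Nnt-202 has 17 exons and 2505 coding bases, whereas Nnt-201 has 15 exons and 2163 coding bases. The 2 exons it lacks are the eighth and ninth of Nnt-202, of 146 bases (chr13:119374629-119374774) and 196 bases (chr13:119372396-119372591), and together they hold 342 coding bases. The gene-level counts pool these forms, so a shift between them cannot be seen here. The junctions that tell the forms apart are shown 5′ to 3′ from the GENCODE transcript sequences, 30 bases to each side, with the downstream exon in capitals.
Nnt-201, skipping both exons: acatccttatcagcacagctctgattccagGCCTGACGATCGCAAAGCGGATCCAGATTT
Nnt-202, into the 146-base exon: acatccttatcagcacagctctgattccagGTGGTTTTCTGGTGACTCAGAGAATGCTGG
Nnt-202, between the 2 exons: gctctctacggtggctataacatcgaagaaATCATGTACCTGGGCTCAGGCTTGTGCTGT
Nnt-202, out of the 196-base exon: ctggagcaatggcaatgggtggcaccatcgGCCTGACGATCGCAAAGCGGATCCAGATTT

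The WT libraries held 29.5, 21.6 and 19.8 CPM of Nnt, from 807, 590 and 523 reads. The NS-DADm libraries held 40.5, 42.7 and 41.0 CPM, from 991, 1180 and 1077 reads. The NS-DADm libraries lay close together and above all WT libraries, and WT 1 stood above the other WT libraries. The lowest NS-DADm value was 1.37 times the highest WT value. Group means were 23.6 ± 5.2 (WT) and 41.4 ± 1.2 CPM (NS-DADm; SD, n = 3 each), a fitted fold of 1.75 (log2 fold change 0.81 ± 0.13 SE). A larger fitted log2 fold change, in either direction, was found for 168 of the 15894 tested genes.

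The spread of Nnt differed between the groups as well as its level. Its coefficient of variation was 21.9% among WT libraries, above that of 98.3% of the 2935 genes whose WT mean lay within 1.5-fold of its own, for which the median was 6.00%. Among NS-DADm libraries it was 2.78%, against a median of 3.98% for 3058 genes of like level. The difference in spread was not tested, since each group holds only 3 animals. Over all genes, WT 1 differed from WT 2 and WT 3 by 10.4 and 9.83 times the counting noise (chi-square per degree of freedom). WT 2 and WT 3 differed by 3.41 times that noise, and pairs of NS-DADm libraries by 6.57 to 8.38 times. In the fits, Nnt was past the threshold with all 6 libraries and without WT 1 (log2 1.00) or WT 2 (0.75). It was not past it without WT 3 (0.70) or without NS-DADm 1, 2 or 3 (0.82, 0.79 and 0.82). When the thalamus markers' mean log2 CPM entered the fit as a covariate, the log2 fold change of Nnt was 1.27, not past the threshold. This covariate was 4.54, 4.17 and 4.49 in the NS-DADm libraries, below every WT library, so the fit cannot separate tissue from genotype. Among the WT animals the mean log2 CPM of the thalamus markers was 6.02, 5.19 and 5.67 in WT 1, 2 and 3, so WT 1 was highest in both, while WT 2 and WT 3 stood in opposite order for Nnt. The part of tissue and cell makeup in the Nnt difference was not tested, and in these bulk samples fewer cells of a type and less RNA per cell cannot be told apart.

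**Figure D1:**
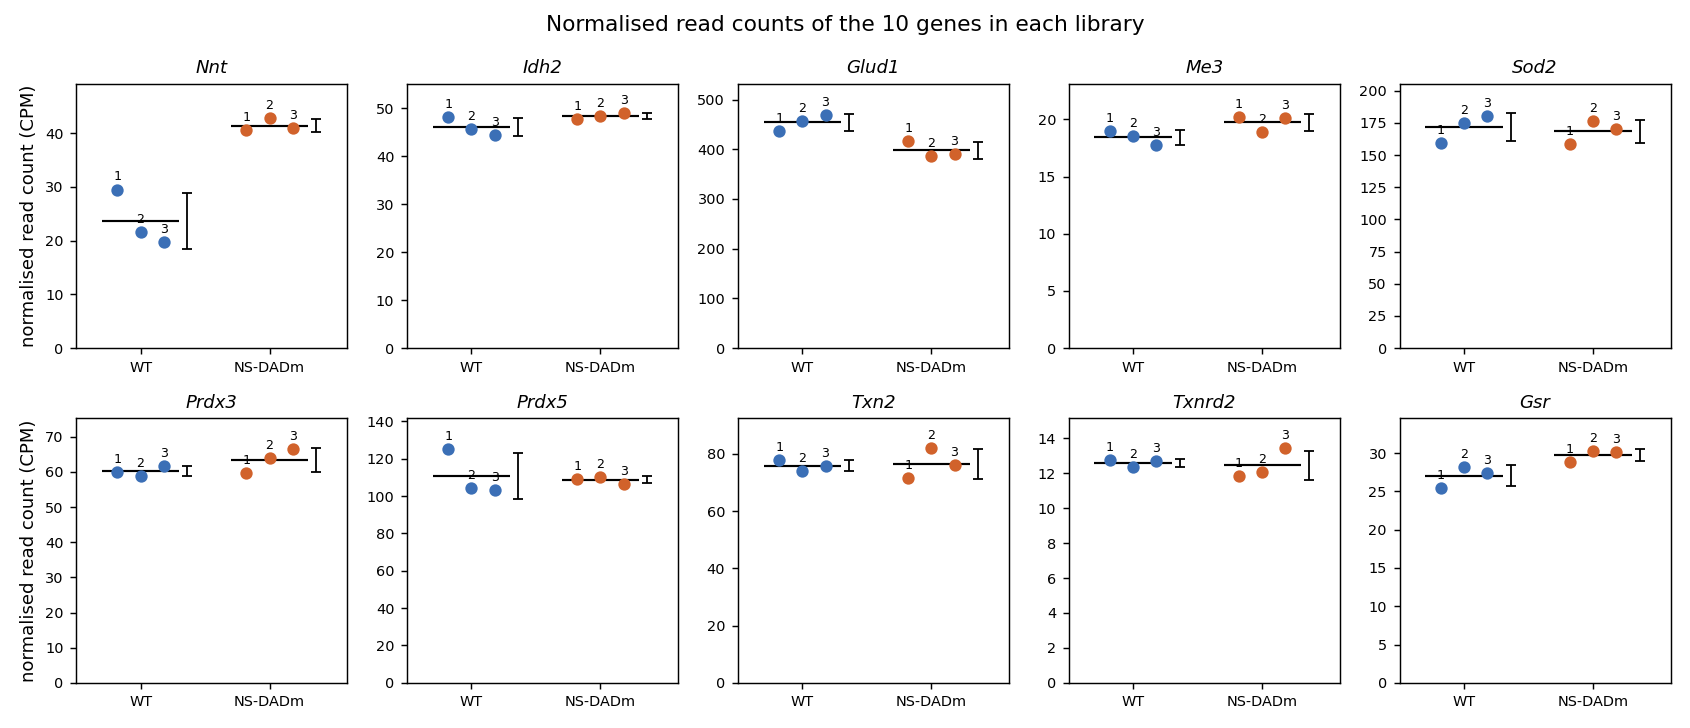
Normalised read counts (CPM) of the 10 genes, each point 1 library labelled with its animal's number, with the group mean as a line and the SD as a bar (n = 3 each). Nnt sits at 19.8 to 29.5 CPM (WT) and 40.5 to 42.7 CPM (NS-DADm), whereas 7 of the other 9 genes overlap between the groups.

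None of the 10 tested genes nearest to Nnt passed the threshold. On the telomere side, Paip1, which stimulates translation and starts 19.6 kb away, had means of 83.1 ± 3.6 (WT) and 80.6 ± 1.1 CPM (NS-DADm; log2 -0.04). Next to it 4833420G17Rik had a log2 fold change of 0.06, 3110070M22Rik of -0.05, the chemokine gene Ccl28 of 0.15 and the cholesterol synthesis gene Hmgcs1 of -0.17. On the other side the nearest tested gene was the growth factor gene Fgf10, 543.3 kb away, with means of 7.35 ± 0.32 (WT) and 5.58 ± 0.32 CPM (NS-DADm; log2 -0.40 ± 0.11 SE). Mrps30, for a mitochondrial ribosomal protein, Emb and Parp8 had -0.03, 0.10 and 0.07. Fgf10 and Hmgcs1 were lower in NS-DADm without overlap between the groups but short of the threshold (edgeR, BH adjusted p = 0.13 for Fgf10 and 0.18 for Hmgcs1).

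Among the other suppliers of matrix NADPH, Idh2 makes it from isocitrate. Its WT libraries held 48.2, 45.7 and 44.5 CPM, and its NS-DADm libraries 47.8, 48.4 and 49.0 CPM. The groups overlapped through WT 1, and the log2 fold change was 0.07 ± 0.05 SE, with a 95% interval of -0.05 to 0.19. For Me3, the NADP-dependent mitochondrial malic enzyme, the WT values were 19.0, 18.5 and 17.7 CPM and the NS-DADm values 20.2, 18.9 and 20.2 CPM. Its groups overlapped too, since NS-DADm 2 lay just under WT 1 (log2 0.10 ± 0.07 SE). Of its exon bases, 569 are shared with the transcript A230065N10Rik on the opposite strand, and without a stated strand setting their reads cannot be told apart.

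Glud1, the glutamate dehydrogenase that links glutamate to the tricarboxylic acid cycle, pointed the other way from Nnt. Its WT libraries held 436, 458 and 468 CPM, and its NS-DADm libraries 417, 386 and 390 CPM. All NS-DADm libraries lay below all WT libraries, but WT 1 and NS-DADm 1 were only 436 and 417 CPM. The log2 fold change was -0.19 ± 0.05 SE and did not pass the threshold (edgeR, BH adjusted p = 0.12). It did pass without WT 1 (log2 -0.22; edgeR, BH adjusted p = 0.020) and with DESeq2 (log2 -0.19; BH adjusted p = 0.025). These fits called 1.95% and 1.77% of all tested genes, against 0.654% in edgeR with all libraries. Part of its sequence resembles the pseudogene Glud-ps (97.6% identity over 656 bases), and reads that align to both equally were not counted.

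Neither enzyme that spends NADPH passed the threshold. For Gsr, glutathione reductase, the WT values were 25.5, 28.2 and 27.5 CPM and the NS-DADm values 28.8, 30.3 and 30.2 CPM. NS-DADm libraries lay above WT without overlap, by only 28.8 against 28.2 CPM at the closest, and the log2 fold change of 0.14 ± 0.06 SE did not pass the threshold (edgeR, BH adjusted p = 0.46). Txnrd2, the selenoprotein that recharges thioredoxin 2, had the fewest counts of the 10, with WT values of 12.8, 12.4 and 12.7 CPM and NS-DADm values of 11.9, 12.1 and 13.4 CPM. NS-DADm 3 was its highest library and NS-DADm 1 its lowest, so the groups overlapped entirely (log2 -0.02; 95% interval -0.20 to 0.16).

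Prdx3 encodes the peroxiredoxin of the mitochondrial matrix. Its WT libraries held 60.0, 58.8 and 61.7 CPM and its NS-DADm libraries 59.8, 63.9 and 66.5 CPM (log2 0.08; 95% interval -0.04 to 0.20). For Txn2, the thioredoxin that reduces it, the WT values were 78.0, 74.2 and 75.7 CPM and the NS-DADm values 71.6, 82.0 and 76.1 CPM. NS-DADm libraries were spread more widely than WT for both genes, and the groups overlapped. The fold change of Txn2 was 0.01 on the log2 scale (95% interval -0.11 to 0.14). For Prdx5, a peroxiredoxin also found in peroxisomes and cytosol, the WT values were 125, 104 and 103 CPM and the NS-DADm values 109, 110 and 107 CPM. WT 1 alone stood high, as it did among WT libraries for Nnt, and without it the log2 fold change of Prdx5 moved from -0.03 to 0.07, neither past the threshold. Prdx5 shares 409 exon bases with Trmt112 on the opposite strand.

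For Sod2, the manganese superoxide dismutase, the WT values were 160, 175 and 180 CPM and the NS-DADm values 159, 176 and 170 CPM. Animal 1 was lowest in both groups, and the groups overlapped over nearly their whole range (log2 -0.03; 95% interval -0.15 to 0.10). Of the other 9 genes, 0 passed the threshold in edgeR, against 0.654% of all genes tested, and their log2 fold changes ran from -0.19 to 0.14. Their groups overlapped in 7 cases and did not in 2, Glud1 and Gsr, where 16.8% of all tested genes did not overlap. Because the set was assembled with this contrast known, nothing is read from these counts. At an unadjusted p under 0.05, Glud1 was the single gene among the 9, where 10.9% of all tested genes had such a p.

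**Figure D2:**
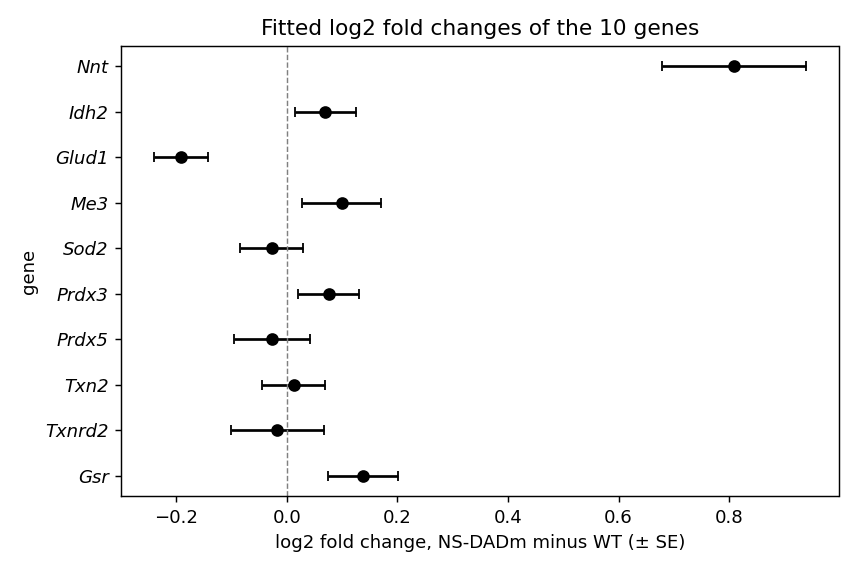
Fitted log2 fold changes of NS-DADm against WT for the 10 genes, with bars of 1 SE and a dashed line at no change. Nnt stands at 0.81, and the other 9 lie between -0.19 and 0.14.

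Levels were set against each other per kilobase of the longest coding transcript. Glud1 was the most abundant in WT at 134 ± 4.8 CPM per kilobase, followed by Prdx5 at 87.8 ± 9.8, Prdx3 at 40.7 ± 0.99, Txn2 at 37.1 ± 0.94, Sod2 at 29.3 ± 1.8 and Idh2 at 26.4 ± 1.1 (SD, n = 3). Lower still were Gsr at 10.1 ± 0.53, Nnt at 6.82 ± 1.5, Txnrd2 at 4.38 ± 0.076 and Me3 at 4.11 ± 0.14 CPM per kilobase. Prdx3 and Txn2 were close neighbours in this order and so were Sod2 and Idh2, as were Txnrd2 and Me3. Nnt ranked eighth in each WT library and seventh in each NS-DADm library, where it lay at 11.7 to 12.3 CPM per kilobase against 11.1 ± 0.31 (SD, n = 3) for Gsr. With the union of all annotated exons as the length, which counts retained introns, Nnt ranked eighth in both groups, with 5.88 CPM per kilobase against 10.8 for Gsr in NS-DADm.

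**Figure D3:**
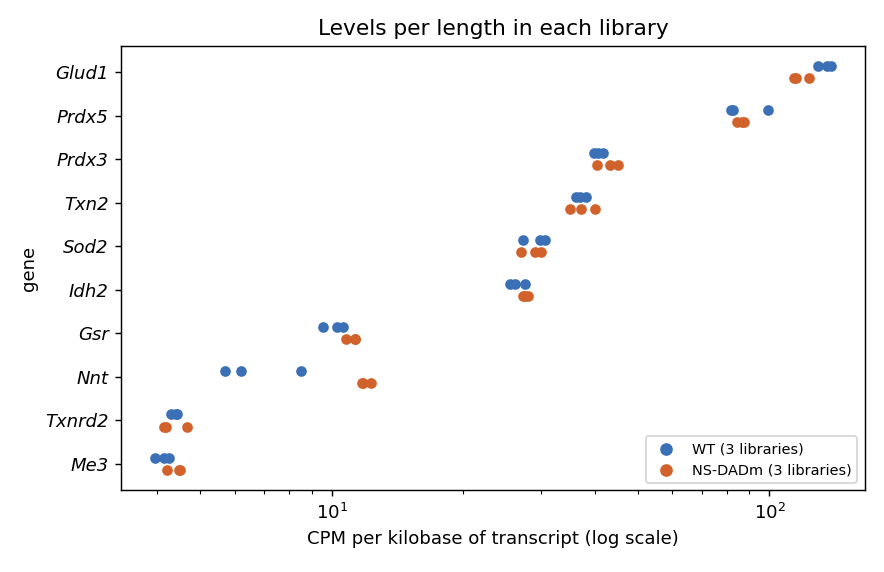
CPM per kilobase of the longest coding transcript on a log scale, each point 1 library, with WT in blue and NS-DADm in orange. Nnt moves from 5.72 to 8.52 CPM per kilobase in WT to 11.7 to 12.3 in NS-DADm, past Gsr, while the order of the more abundant genes is the same in both groups.

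Within each library, Nnt was also set against each of the other 9 genes. On the per-kilobase scale its ratio to Gsr had WT values of 0.893, 0.590 and 0.557 and NS-DADm values of 1.09, 1.09 and 1.05. Its ratio to Idh2 had WT values of 0.309, 0.238 and 0.224 and NS-DADm values of 0.427, 0.445 and 0.421. For both partners the lowest NS-DADm ratio lay above the highest WT ratio, and this held for the remaining 7 partners too. Mean ratios in NS-DADm were 1.58 (against Gsr) to 1.99 (against Glud1) times those in WT. These ratios share the Nnt value and are not independent of its choice.

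The rest of the NADPH and redox network was read from 8 lists holding 79 genes, all tested. None of the 79 passed the threshold in edgeR (smallest BH adjusted p = 0.19), 15 had an unadjusted p under 0.05 (19.0%, against 10.9% of all genes tested), and log2 fold changes ran from -0.33 to 0.39. Groups did not overlap for 19 of them (24.1%, against 16.8%). The median size of the log2 fold change was 0.06, against 0.07 over all genes tested.

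Other mitochondrial NADPH and one-carbon enzymes, 8 genes, had a median log2 fold change of 0.01, against 0.004 over all genes tested. Nadk2, the kinase that makes mitochondrial NADP+, had means of 72.6 ± 1.0 (WT) and 72.6 ± 2.6 CPM (NS-DADm). The folate enzyme Mthfd2l had a log2 fold change of 0.17 and Mthfd1l of -0.14, each without overlap between the groups. A list of 8 NADPH enzymes outside mitochondria, cytosolic apart from H6pd of the endoplasmic reticulum, had a median of -0.04, with G6pdx, the entry to the pentose phosphate pathway, at -0.05, Me1, the cytosolic malic enzyme, at -0.12 and Mthfd1 at 0.13. In both lists 0 genes passed the threshold.

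Thioredoxin, peroxiredoxin and glutaredoxin genes outside the set, 12 in number, had a median of 0 and ranged from -0.18 for cytosolic thioredoxin, Txn1, to 0.39 for Txnip, which binds and inhibits thioredoxin. Txnip had means of 18.9 ± 1.0 (WT) and 24.6 ± 4.6 CPM (NS-DADm), and Txn1 of 55.2 ± 2.6 and 48.8 ± 2.7 CPM. Neither passed the threshold (edgeR, BH adjusted p = 0.23 and 0.29). Glutathione synthesis and peroxidase genes, 14 in number, had a median of 0.06, and the microsomal transferases Mgst1 and Mgst3 had log2 fold changes of 0.32 and -0.28, neither past the threshold. The remaining superoxide and peroxide enzymes, Sod1, Sod3, Ccs and Cat, had a median of -0.08, and extracellular Sod3 was lowest at -0.33 (7.66 ± 1.0 to 6.07 ± 0.38 CPM).

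Among 10 regulators and targets of NRF2, the transcription factor that induces antioxidant genes, 0 passed the threshold and the median was 0.07. Its target Nqo1, a quinone reductase, had means of 5.79 ± 0.17 (WT) and 7.10 ± 0.71 CPM (NS-DADm) without overlap (log2 0.30). The cystine transporter gene Slc7a11 had a log2 fold change of -0.24, with overlap. Of the 10, 4 (Nqo1, Abcc1, Gclc and Gclm) were higher in NS-DADm without overlap, as were 1249 of the 15894 tested genes. Gclc, Gclm, Srxn1 and Txnrd1 stand in this list and in those above. The 17 tricarboxylic acid cycle and linked enzymes had a median of -0.04, with Got2, the mitochondrial aspartate aminotransferase, at -0.13. The 10 markers of mitochondrial content had a median of 0, with the porin gene Vdac1 lowest at -0.15 (408 ± 11 to 366 ± 9.7 CPM), with a BH adjusted p of 0.19 in edgeR.

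**Figure D4:**
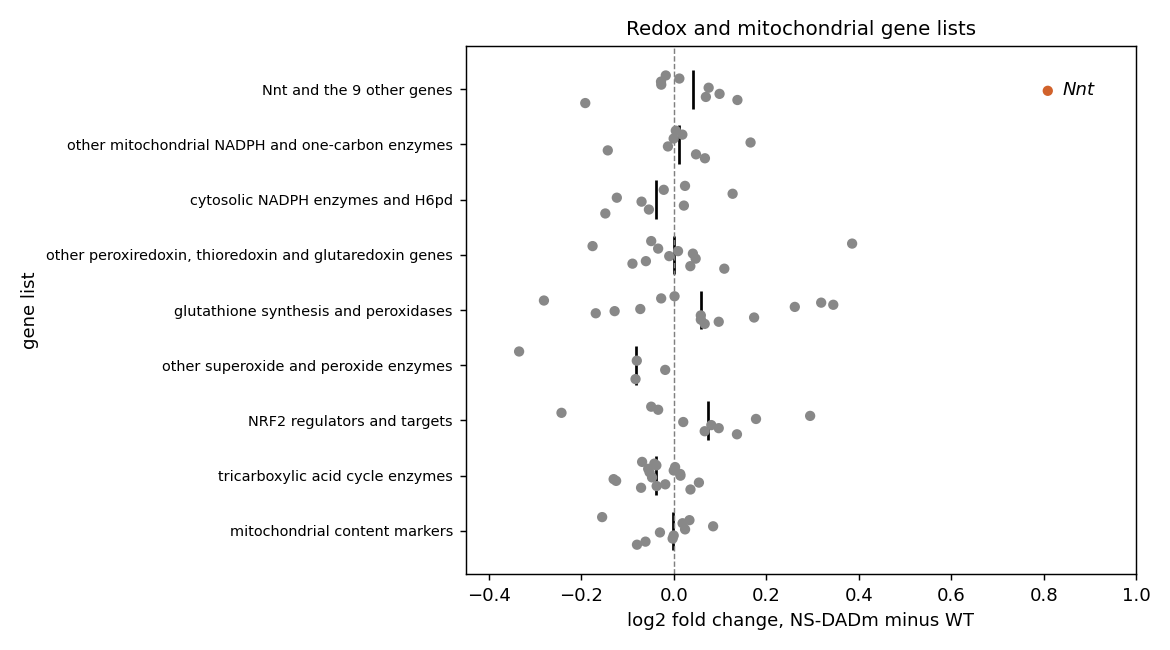
Log2 fold changes of NS-DADm against WT for each tested gene (points) of 9 lists, with list medians as vertical lines and genes past the threshold in orange. Nnt at 0.81 is the single orange point, and the other genes plotted lie between -0.33 and 0.39.

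Because the labels give no substrain, 4 genes whose transcript levels are known to vary among C57BL/6 mice were read beside Nnt. Gabra2, for a GABA-A receptor subunit, had WT values of 35.4, 85.0 and 84.5 CPM and NS-DADm values of 42.2, 38.8 and 40.8 CPM. WT 1 lay with the NS-DADm libraries for this gene, far below the other WT animals, and WT 1 was also the WT library with the highest Nnt. No animal is assigned to a substrain from these values, and the direction of known substrain differences was not compared with them. Wdfy1, for an endosomal protein, had WT values of 68.7, 73.0 and 31.0 CPM and NS-DADm values of 67.6, 111 and 110 CPM. Its values fell at 3 levels, with WT 3 lowest, WT 1, WT 2 and NS-DADm 1 between, and NS-DADm 2 and 3 highest.

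Ide, for the insulin-degrading enzyme, had WT values of 56.5, 62.9 and 58.4 CPM and NS-DADm values of 58.1, 60.5 and 95.5 CPM, and NS-DADm 3 stood alone. Entpd4 had 0 to 5 counts per library and was not tested. Groups overlapped for all of these genes, and none passed the threshold (edgeR, BH adjusted p = 0.61 for Gabra2, 0.65 for Wdfy1 and 0.76 for Ide). Animals of 1 group thus differed from each other in each of these 3 tested transcripts, as the WT animals did in Nnt. The NS-DADm animals lay close together in both Nnt and Gabra2. The part of genetic background in the Nnt difference was not tested.

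**Figure D5:**
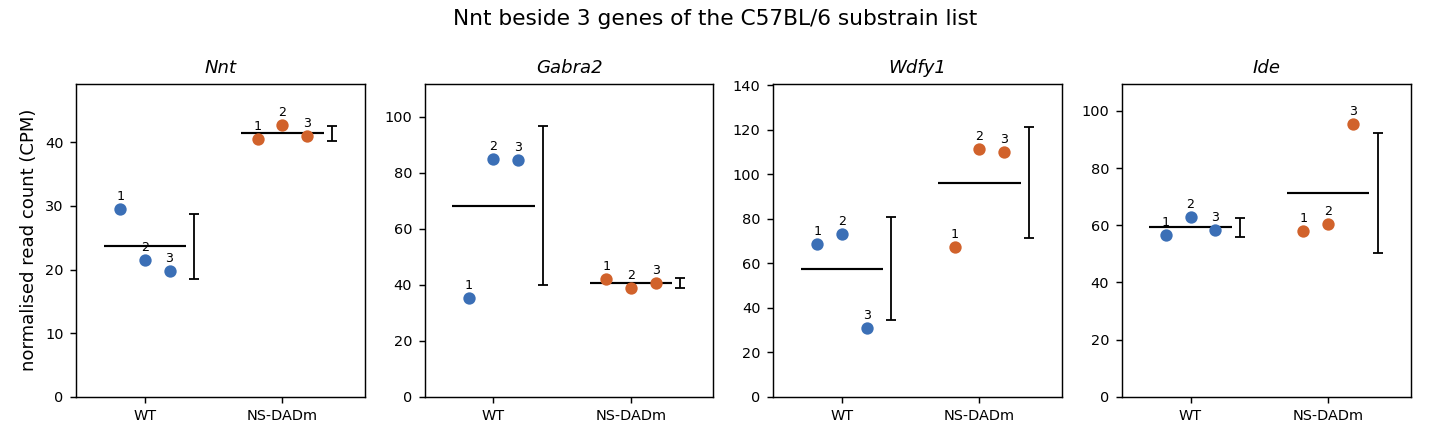
CPM of Nnt, Gabra2, Wdfy1 and Ide in each library (points numbered by animal), with group means as lines and SD as bars (n = 3 each). Gabra2 is at 35.4 CPM in WT 1 and near 85 CPM in WT 2 and 3, Wdfy1 falls at 3 levels across both groups, and Ide is high only in NS-DADm 3.

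The genes whose pattern over the 6 libraries was most like that of Nnt, by Pearson's r of log2 CPM among 12004 others at a mean level of 5 CPM or more, were Brd8, Gstm6, Hip1, Stac2 and Dgke (r = 0.994, 0.991, 0.989, 0.988 and 0.981). The 6 libraries form 2 groups, so any gene that separates them can score highly. Gstm6, a glutathione transferase gene, had WT values of 23.5, 19.4 and 17.7 CPM and NS-DADm values of 27.0, 27.2 and 27.5 CPM, with the same order among WT animals as Nnt. Brd8, for a bromodomain protein, spanned only 84.0 to 91.0 CPM. None of the 5 passed the threshold (edgeR, BH adjusted p = 0.057 for Gstm6).

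Promoters of 8 of the 10 genes were found in the RefSeq table for GRCm38.p6, as 300 bases from 250 before to 50 after the gene's start, without Nnt and Gsr. The letters AGGTCA, the core that many nuclear receptors recognise, occurred on either strand in 2 of the 8, against 16.3% of all 32851 promoters of this length. Both are shown with the match in capitals. The antioxidant response element core, TGACNNNGC, occurred on either strand in 0 of the 8 and in 12.4% of all promoters. Neither gene with a match, Prdx3 or Txnrd2, passed the threshold.
Prdx3, 190 bases before the start (chr19:60874706-60874745, minus strand): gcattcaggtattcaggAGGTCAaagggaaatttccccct
Txnrd2, 162 bases before the start (chr16:18426238-18426277, plus strand): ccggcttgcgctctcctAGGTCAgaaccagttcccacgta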

How the data were processed

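The authors deposited 6 tables of raw read counts by gene symbol. TopHat2 2.0.9 (alignment to mm10) and HTSeq (counting) are named per the submitters' processing notes. No HTSeq version, annotation or strand setting is given in the sources used here. The 5 rows of unassigned reads were left out. They held reads that fell on no counted feature (13.3 to 14.8% of all entries), ambiguous reads (1.00 to 1.06%) and non-unique alignments (14.3 to 16.5%).

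After filterByExpr and TMM scaling, counts were tested with the quasi-likelihood test of edgeR 4.0.16 (R 4.3.3, robust, no covariates). P-values were adjusted by Benjamini-Hochberg (BH) over 15894 genes, with a threshold of 0.05. CPM used TMM-scaled library sizes. Alternatives included DESeq2 1.42.0 and limma 3.58.1 (voom). Lengths and positions came from GENCODE M21, and similar transcripts from BLAST.

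The genes and lists were chosen with earlier results of these data known. The text names the 10 genes, from each list all called genes and up to 4 with the smallest p (of the cell type lists mostly counts are given), 5 tested neighbours to each side of Nnt, the 5 genes most like it, and Ncor1 and Hdac3. Other genes named were chosen after their values were seen. A few genes that fall under this rule are not reported here. Pairs of libraries within a group differed by 3.41 to 10.4 times the counting noise (chi-square per degree of freedom), so none was treated as 1 library deposited in duplicate.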

Additional observations from a re-analysis of the deposited data

How the results depend on the processing

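Nnt was higher in NS-DADm under all 16 alternatives and past the threshold in 10. These fits reuse the counts on which it was selected, so this tally describes the processing and is no support for the difference. With no count filter its log2 fold change was 0.80 and with the thalamus marker covariate 1.27, neither past the threshold, and with 1 library left out it ran from 0.70 to 1.00. The covariate did not overlap between the groups, so fits with it cannot separate tissue from genotype. Of the 10 genes, 1 was called with all libraries, 0 with no count filter or the covariate, 2 with DESeq2, and 0 to 2 with 1 library left out. Over all genes, 104 calls became 203 with no count filter, 282 with DESeq2, 9 with the covariate and 5 to 312 with 1 library left out. Library size alone gave 72 and a minimum mean of 1 CPM gave 89.

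Whether shared replicate numbers mark pairs is not known, and 3 animals per group cannot settle it. Same-numbered libraries' deviations from their group means correlated at 0.177, 0.109 and -0.024. WT 1 and WT 2 correlated best with the NS-DADm library of their own number, but WT 3 did so with NS-DADm 2 (0.085). With a replicate block there were 409 calls over all genes and 2 of the 10, Nnt (log2 0.82) and Glud1 (-0.19; edgeR, BH adjusted p = 0.041).

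Values near 0 changed sign in some fits, with none past the threshold. With the covariate Prdx5 was 0.257, Txn2 -0.008, Txnrd2 0.073 and Gsr -0.061. With 1 library left out, Prdx5 ran from -0.076 to 0.073 (above 0 without WT 1), Txn2 from -0.040 to 0.059 (below 0 without WT 2 or NS-DADm 2), Sod2 from -0.073 to 0.016 (above 0 without WT 3 or NS-DADm 1) and Txnrd2 from -0.075 to 0.017 (above 0 without NS-DADm 1 or 2). The causes were not tested.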
